A study of Mus musculus with 38 samples.

Results

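The 31 genes described here are a fixed list of transcripts enriched in microglia, the resident macrophages of the brain. They were listed by name, with earlier results of these data known, and the rule uses no measured value. Each matched 1 of the 57010 gene IDs of the count table. All 31 passed the filter on low counts in every fit. The genes were measured by bulk RNA sequencing of medial prefrontal cortex from 38 mice, 1 library per mouse. Control mice carried SSTCre, a Cre recombinase driven by the somatostatin promoter, and mutant mice were SSTCre:γ2f/f, which add a floxed allele, so that Cre is present in every animal. Recombination is thus directed at somatostatin neurons and not at microglia. Mice were either unstressed (NS) or exposed to chronic variable stress (CVS) for 21 days, and were killed 24 hours after the last stressor. Among males there were 5 unstressed and 6 stressed controls and 3 unstressed and 4 stressed mutants; females numbered 5 in every group. Age is not given in the labels.

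Microglia survey the tissue with motile processes and depend on signalling through the receptor Csf1r for survival. They read neuronal state through the fractalkine receptor Cx3cr1 and purinergic receptors such as P2ry12, and they are the main source in brain of C1q, the recognition molecule that starts the classical complement cascade and can tag synapses for removal. The receptor Trem2 signals through the adaptor Tyrobp, and engulfed material is degraded in lysosomes that hold Cd68 and the cathepsin Ctss. The transcription factor PU.1, encoded by Spi1, is required for the microglial lineage and binds a purine-rich sequence with GGAA at its core.

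Total counts per library were 17.64 to 27.51 M. The labels name no batch. The animals of the sexes carry separate name series, and levels are compared only within a sex. The libraries of the sexes also differed in make-up. Mitochondrial transcripts held 5.13 to 6.66% of counts in males and 3.26 to 4.08% in females. The most abundant gene ID held 0.0451 to 0.406% in males and 4.21 to 7.83% in females. Sex cannot be told apart from the name series and what goes with it. Cdhr1, a gene of olfactory bulb neurons, stood apart in 3 male libraries, with 25.8 CPM (counts scaled to an equal library total) in mutant NS replicate 2, 27.5 in mutant NS replicate 3 and 16.6 in control CVS replicate 1, against 1.70 to 5.20 in the other 35. The male list medians are therefore also given without these 3 libraries, which leaves 1 male mutant NS library. This choice rests on Cdhr1 alone. Of 4 olfactory bulb markers 2 passed the filter in males. For genotype in unstressed males 1 had a log2 fold change of 2.71 and the other −0.23, so they did not move together. Whether the 3 libraries hold bulb tissue was not tested. Among markers of other cells, those of border macrophages summed to 20.5 to 47.7 CPM and those of monocytes and neutrophils to 0.294 to 6.55 CPM, while the 31 microglia genes summed to 641.7 to 900.1 CPM. Hemoglobin genes, which mark blood in the tissue, summed to 33.9 to 177.1 CPM. Of 7 lymphocyte markers, only the T-cell receptor gene Trbc2 passed the filter. Border macrophages also express C1q, Csf1r, Ctss and several other genes of the list. In bulk tissue, fewer cells of a type and less RNA per cell cannot be told apart.

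The promoters of C1qb and C1qc, which co-varied in males, of the 3 lysosomal genes whose male groups did not overlap in a comparison (Ctss, Laptm5 and Cd68), and of Cx3cr1 are shown because they differ in whether the hexamer GAGGAA, a form of the PU.1 core, is present. Each sequence is the 250 bases before the annotated start in RefSeq on build GRCm38.p6, and capitals mark GAGGAA or its reverse complement TTCCTC. C1qb lies at chr4:136886201-136886450 on the minus strand, and C1qc at chr4:136892915-136893164 on the minus strand. Ctss lies at chr3:95526536-95526785 on the plus strand, Laptm5 at chr4:130913066-130913315 on the plus strand, Cd68 at chr11:69666171-69666420 on the minus strand, and Cx3cr1 at chr9:120068297-120068546 on the minus strand.
C1qb: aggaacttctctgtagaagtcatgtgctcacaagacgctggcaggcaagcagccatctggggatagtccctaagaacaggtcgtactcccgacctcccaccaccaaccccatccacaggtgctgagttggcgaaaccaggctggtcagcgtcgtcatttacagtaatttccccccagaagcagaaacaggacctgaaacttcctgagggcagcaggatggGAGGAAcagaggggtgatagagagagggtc
C1qc: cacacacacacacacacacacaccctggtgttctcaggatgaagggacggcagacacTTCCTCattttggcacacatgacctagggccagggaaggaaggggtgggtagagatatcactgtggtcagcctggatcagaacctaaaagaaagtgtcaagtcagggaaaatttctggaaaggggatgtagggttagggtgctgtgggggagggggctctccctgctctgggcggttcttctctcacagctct
Ctss: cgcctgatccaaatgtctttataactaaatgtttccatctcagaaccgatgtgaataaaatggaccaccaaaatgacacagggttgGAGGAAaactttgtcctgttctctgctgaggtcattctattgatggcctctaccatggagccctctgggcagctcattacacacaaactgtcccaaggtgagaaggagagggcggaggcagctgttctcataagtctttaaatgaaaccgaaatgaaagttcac
Laptm5: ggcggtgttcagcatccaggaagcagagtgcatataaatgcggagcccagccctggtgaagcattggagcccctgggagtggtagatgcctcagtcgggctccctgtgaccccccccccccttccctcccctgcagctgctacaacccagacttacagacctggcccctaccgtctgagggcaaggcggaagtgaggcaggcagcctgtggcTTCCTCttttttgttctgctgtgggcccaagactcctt
Cd68: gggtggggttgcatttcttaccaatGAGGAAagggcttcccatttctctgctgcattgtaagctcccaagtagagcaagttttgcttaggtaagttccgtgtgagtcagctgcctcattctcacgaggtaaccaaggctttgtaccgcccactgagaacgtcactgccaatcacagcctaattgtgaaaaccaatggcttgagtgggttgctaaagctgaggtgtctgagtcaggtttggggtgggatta
Cx3cr1: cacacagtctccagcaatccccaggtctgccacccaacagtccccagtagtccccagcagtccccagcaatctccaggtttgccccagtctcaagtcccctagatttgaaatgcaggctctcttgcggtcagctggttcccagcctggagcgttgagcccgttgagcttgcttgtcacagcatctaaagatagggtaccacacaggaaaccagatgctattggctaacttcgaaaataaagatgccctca

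The hexamer began 30 bases before the start of C1qb, 193 before that of C1qc, 164 before that of Ctss, 38 before that of Laptm5 and 225 before that of Cd68. It was not in the Cx3cr1 window. It was also absent from the window of Fcer1g, which is not shown although its male groups did not overlap in a comparison. No RefSeq promoter was available here for C1qa. Of the 31 genes, 25 had a promoter in the RefSeq table, and 15 of these (60%) held GAGGAA on either strand, against 25.9% of 27025 genes. The longer form GAGGAAGT, which contains the hexamer, was in 3 of 25 (12%), against 2.79% of genes. Counted by window, since a gene can have several starts, the hexamer was in 53.6% of 28 windows of these genes and in 23.3% of 32851 windows. These matches describe letters in a fixed window and were not tested against binding data.

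The 31 genes spanned a wide range of levels. In CPM per kilobase of exon, which allows genes to be compared, the lysosomal cathepsin Ctss led in males at 43.3 ± 4.35 (SD, n = 18), followed by the lysosomal protease Lgmn at 41.9 ± 1.69. The C1q chains C1qa and C1qb came next at 38.8 ± 3.18 and 37.1 ± 3.25. Neighbours among these 4 genes differed by less than the SD between libraries of the lower one. Whether their means differ was not tested. A step followed to C1qc at 19.5 ± 2.12, Csf1r at 19.1 ± 1.11, P2ry12 at 16.6 ± 1.46, Tyrobp at 14.9 ± 1.87 and Cx3cr1 at 12.5 ± 0.901. The lowest were the complement receptor C3ar1 at 0.503 ± 0.134 and Ptprc, the pan-leukocyte phosphatase CD45, at 0.232 ± 0.0404. In the 20 female libraries the leading genes on the same scale were C1qb at 39.3 ± 3.34, C1qa at 38.5 ± 3.33, Lgmn at 38.4 ± 1.82 and Ctss at 37.3 ± 2.46, and Ptprc was again lowest at 0.159 ± 0.0254. Within a sex the highest level was 187 times the lowest in males and 248 times in females.

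Variation between animals of 1 group was small for most of the list. The within-group coefficient of variation of CPM ran in males from 4.14% for Lgmn to 26.1% for C3ar1, with a median of 9.83%. In females it ran from 4.63% for Lgmn to 26.3% for C3ar1, with a median of 10.99%. It exceeded the variation from counting alone for 31 of 31 genes in each sex. C3ar1 had 11 to 77 reads in a library, the fewest of the list, and Csf1r had 1651 to 2978.

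No microglia gene passed the threshold in any comparison. Fold changes were tested with the quasi-likelihood test of edgeR, and p values were adjusted over all genes tested (Benjamini-Hochberg, threshold 0.05). There were 13 comparisons: stress and genotype effects within each sex, their interactions, both effects averaged over all 38 mice, and the difference of the stress effect between the sexes. The lowest adjusted p of a listed gene in any of them was 0.1493, for Siglech in the averaged genotype comparison. The share of all genes past the threshold was also low: in males 0.0116% for stress in controls, 0% for stress in mutants, 0.0174% for genotype without stress, 0.0523% for genotype under stress and 0% for the interaction. In females it was 0% for stress in controls, 0% for stress in mutants, 0.128% for genotype without stress, 0.0243% for genotype under stress and 0% for the interaction. Over all mice it was 0.017% for stress, 1.09% for genotype and 0% for the sex difference of the stress effect. A p above the threshold does not show that levels were equal, so intervals are given below.

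**Figure D1:**
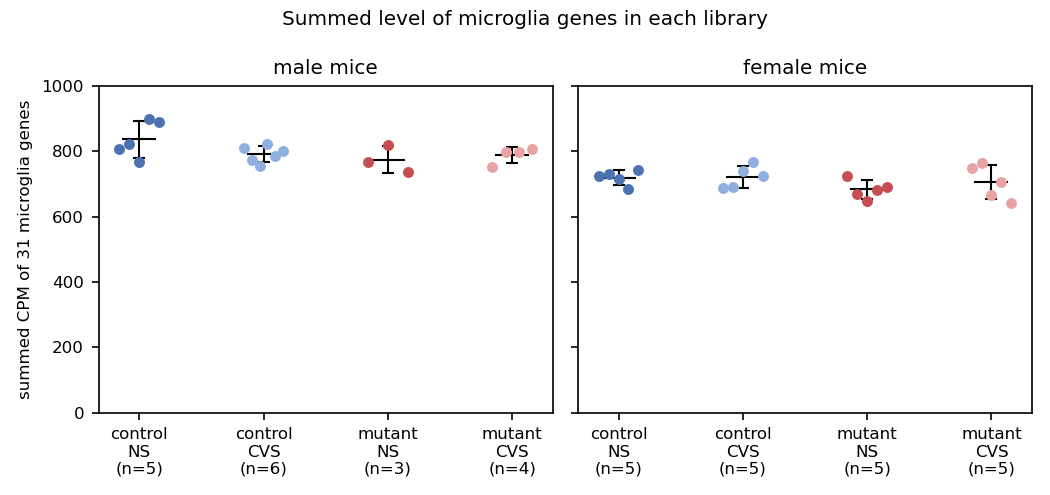
Summed CPM of the 31 microglia genes in each library (points), by genotype and stress, in male (left) and female (right) mice, with the group mean and SD as black bars. Male control NS libraries span 766.4 to 900.1 CPM and overlap every other male group, and the 4 female groups overlap.

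The summed level of the 31 genes showed how close the groups were. In males it was 806, 821, 766, 900.1 and 890.5 CPM in the 5 control NS libraries (mean 837 ± 57.2), 791 ± 23.9 in the stressed controls (n = 6), 774 ± 40.9 in the unstressed mutants (n = 3) and 789 ± 24.6 in the stressed mutants (n = 4). Control NS replicates 4 and 5 were the highest male libraries, and in each of them 28 of 31 genes were above the group's mean, against 2 of 31 in control NS replicate 3. In females the sums were 719.6 ± 22.5 in unstressed and 723 ± 34.0 in stressed controls, and 684 ± 28.3 in unstressed and 706 ± 52.8 in stressed mutants (SD, n = 5 each). Female mutant CVS was the most spread female group: replicate 2 had 28 of 31 genes above the group's mean and replicate 5 had 0 of 31. Genes of the list moved together in such libraries. The counts of genes below 0 in the comparisons below are therefore not counts of separate observations. All male groups overlapped with one another, as did all female groups, as the plot of summed levels shows.

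Stress in male controls gave lower estimates for most of the list without any gene passing the test. Laptm5, a lysosomal membrane protein, was at 30.9, 32.4, 33.0, 33.1 and 34.1 CPM in the 5 control NS males, and at 26.9 to 29.9 CPM (median 28.8) in the 6 control CVS males. Every CVS library was below every NS library. Laptm5 was the only listed gene without overlap here, 1 of 31 (3.23%), against 0.825% of all genes tested. Its log2 fold change was −0.20 ± 0.0570 (SE), with an adjusted p of 0.4316. The secreted olfactomedin-like protein Olfml3 was at 20.6, 23.1, 25.6, 26.1 and 27.5 CPM in NS and at 18.7 to 23.1 CPM (median 20.4) in CVS, groups that overlap at their edges. Its log2 fold change was −0.26 ± 0.0709 (adjusted p 0.3996).

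Across the list, 22 of 31 estimates for stress in male controls were below 0, with a median log2 fold change of −0.10, while 49.9% of all genes were below 0. The other 9 were above 0, with C3ar1 highest at 0.30. At an unadjusted p under 0.05 there were 5 of 31 genes (16.1%), all lower, against 7.39% of all genes in either direction and 3.79% lower. Beside Olfml3 and Laptm5 these were the Fc receptor chain Fcer1g, the Fc receptor-like gene Fcrls and the purinergic receptor P2ry13. The median ranged from −0.12 without control NS replicate 3 to −0.06 without control NS replicate 5, and it was −0.08 without the 3 libraries of high Cdhr1. Markers of other cells were read beside it. Of these, 8 of 8 endothelial and pericyte markers and 7 of 8 astrocyte markers were also below 0, with medians of −0.10 each. Oligodendrocyte markers were below 0 in 5 of 6 cases (median −0.04), and 5 of 6 neuron markers were above 0. The part of these markers in the result was not tested.

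In male mutants, stress gave 11 of 31 estimates below 0, beside 49.9% of all genes, and a median log2 fold change of 0.04. The lowest estimate was that of Aif1 at −0.25, which was −0.01 without the libraries of high Cdhr1. The macrophage lysosomal glycoprotein Cd68 was at 3.79, 4.01 and 4.88 CPM in the 3 mutant NS libraries and at 5.62, 5.69, 5.96 and 6.499 CPM in the 4 mutant CVS libraries. The groups did not overlap, and the log2 fold change was 0.49 ± 0.152. Ctss was at 50.8, 51.1 and 54.1 CPM in mutant NS and at 51.6, 59.4, 65.6 and 66.1 CPM in mutant CVS, with 1 CVS library inside the NS range (0.22 ± 0.0829). Cx3cr1 was at 53.5, 59.6 and 63.6 CPM in mutant NS and at 50.3, 50.7, 53.8 and 56.2 CPM in mutant CVS, so that the groups overlapped (−0.16 ± 0.0665). Each of the 3 had an adjusted p of 0.9997, and they were the genes with an unadjusted p under 0.05 (9.68% of the list, against 3.38% of all genes). Without the libraries of high Cdhr1, which leaves 1 mutant NS library assumed to vary like the other groups, the list's median was 0.06 and the log2 fold change of Cd68 was 0.65 (adjusted p 0.901). C1qb was the other gene without overlap, which makes 2 of 31 (6.45%) against 3.76% of all genes. It was at 38.02, 38.13 and 38.22 CPM in mutant NS and 38.45, 38.76, 42.27 and 43.65 CPM in mutant CVS, a small difference beside its spread in CVS (0.10 ± 0.0821). Unlike the list, markers of other cells were mostly below 0. This held for 6 of 8 astrocyte markers (median −0.03) and 5 of 6 oligodendrocyte markers (median −0.10). It also held for 5 of 8 endothelial and pericyte markers (median −0.07) and 6 of 6 neuron markers (median −0.02). Their part in the result was not tested.

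**Figure D2:**
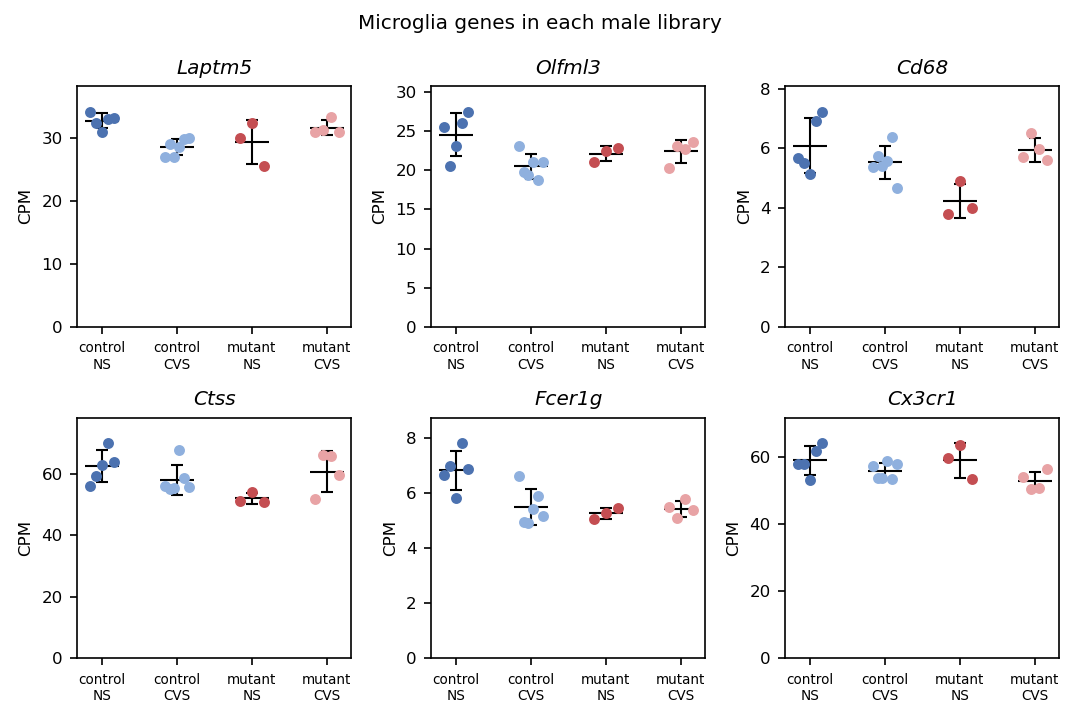
CPM of 6 microglia genes in each male library (points), by genotype and stress, with the group mean and SD as black bars. Laptm5 in control CVS lies below control NS, and Cd68 in mutant NS (3.79 to 4.88 CPM) lies below control NS (5.12 to 7.22) and mutant CVS (5.62 to 6.499).

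Without stress, male mutants were compared with the same 5 control NS males that serve as the baseline of stress in controls, so both comparisons share those libraries. Cd68 was at 5.12, 5.49, 5.68, 6.91 and 7.22 CPM in control NS and at 3.79, 4.01 and 4.88 CPM in mutant NS, with no overlap and a log2 fold change of −0.52 ± 0.146. Ctss was at 56.1, 59.2, 62.7, 63.8 and 69.9 CPM in control NS and at 50.8, 51.1 and 54.1 CPM in mutant NS, again with no overlap (−0.26 ± 0.0793). The adjusted p was 0.6648 for both. Fcer1g was the other gene without overlap, which makes 3 of 31 (9.68%) against 3.84% of all genes. It was at 5.81 to 7.80 CPM in control NS and 5.04 to 5.46 CPM in mutant NS (−0.38 ± 0.131, adjusted p 0.7013). Called genes made up 0.0174% of all genes in this comparison.

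Of the 31 genes, 24 were below 0 for genotype in unstressed males, beside 50.7% of all genes, and the median was −0.11. The other 7 were above 0, with Inpp5d highest at 0.12. In all, 6 listed genes (19.4%) had an unadjusted p under 0.05, all lower, against 6.13% of all genes in either direction and 3.43% lower: Cd68, Ctss, Fcer1g, Csf1r, Laptm5 and C1qb. The median ranged from −0.17 without mutant NS replicate 2 to −0.07 without control NS replicate 4. Without the libraries of high Cdhr1 it was −0.13, with 22 of 31 genes below 0, and Cd68 was at −0.68 (adjusted p 0.615). Astrocyte markers were below 0 in 8 of 8 cases, oligodendrocyte markers in 6 of 6 and endothelial and pericyte markers in 7 of 8. Their medians were −0.12, −0.18 and −0.07, and 5 of 6 neuron markers were above 0. The part of these markers in the result was not tested.

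Under stress, the male genotype comparison gave a median log2 fold change of 0.01 over the list, with 14 of 31 genes below 0 and 51% of all genes below 0. Siglech, a microglial receptor of the Siglec family, was at 15.4 to 20.2 CPM (median 16.4) in control CVS and at 11.6, 13.9, 14.6 and 16.3 CPM in mutant CVS, which overlap (−0.28 ± 0.106, adjusted p 0.541). Gpr34, a receptor for lysophosphatidylserine, had −0.22 ± 0.0944 (adjusted p 0.6004). Laptm5 differed in the other direction: it was at 30.8, 30.9, 31.3 and 33.3 CPM in mutant CVS, all above the 26.9 to 29.9 CPM of control CVS (0.15 ± 0.0610, adjusted p 0.573). It was the 1 listed gene without overlap (3.23%), against 1.48% of all genes. These 3 genes (9.68%) had an unadjusted p under 0.05, against 7.62% of all genes, and 0.0523% of all genes were called. Olfml3 was also above 0 (0.13 ± 0.0762, adjusted p 0.7113). Without the libraries of high Cdhr1 the list's median was 0.00. Oligodendrocyte markers were below 0 in 6 of 6 cases (median −0.25), astrocyte markers in 7 of 8 (median −0.08) and neuron markers in 5 of 6 (median −0.08). Endothelial and pericyte markers were above 0 in 5 of 8 (median 0.04). The part of these markers was not tested.

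The interaction asked whether stress acted differently in male mutants and male controls. Laptm5 had an interaction of 0.31 ± 0.0924 on the log2 scale, Cd68 of 0.63 ± 0.191 and Ctss of 0.33 ± 0.105, each with an adjusted p of 0.9948. The negative estimates of smallest p were those of Inpp5d, a lipid phosphatase that limits immunoreceptor signalling, at −0.20 ± 0.114, and of Gpr34 at −0.25 ± 0.142 (both adjusted p 0.9948). An unadjusted p under 0.05 was reached by 6 listed genes (19.4%), all above 0: Laptm5, Cd68, Ctss, Olfml3, C1qb and Fcer1g. Among all genes this share was 4.18% in either direction and 2.34% above 0. The list's median was 0.09, and it ranged from 0.04 without mutant NS replicate 3 to 0.14 without mutant NS replicate 2. Without the libraries of high Cdhr1 it was 0.11, with Cd68 at 0.78 and Laptm5 at 0.26. Endothelial and pericyte markers were above 0 in 6 of 8 cases (median 0.13) and astrocyte markers in 6 of 8 (median 0.05). Oligodendrocyte markers were above 0 in 2 of 6 (median −0.07) and neuron markers in 0 of 6. The part of these markers was not tested. This contrast holds the same libraries as the 4 male comparisons above and adds no separate evidence to them.

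In female mice, stress in controls gave 13 of 31 genes below 0 (50% of all genes), with a median of 0.02. Aif1, the calcium-binding protein Iba1 that is widely used to stain microglia, was at 3.22, 3.295, 3.94, 4.22 and 4.29 CPM in control NS and at 3.53, 4.19, 5.13, 5.69 and 5.95 CPM in control CVS. The 3 highest CVS libraries exceeded every NS library, and the other 2 were within the NS range (0.37 ± 0.150, adjusted p 0.4761). Aif1 was the 1 listed gene (3.23%) at an unadjusted p under 0.05, against 8.72% of all genes. Next in each direction were the integrin chain Itgam at 0.24 ± 0.141 (adjusted p 0.6571), and Ctss at −0.11 ± 0.0570 (adjusted p 0.604) with Fcer1g at −0.19 ± 0.128 (adjusted p 0.725). Astrocyte markers were below 0 in 7 of 8 cases (median −0.07), oligodendrocyte markers in 5 of 6 (median −0.11) and endothelial and pericyte markers in 5 of 8 (median −0.03). The part of these markers was not tested.

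Stress in female mutants gave 6 of 31 genes below 0, beside 49.7% of all genes, and a median of 0.05. C1qa was at 35.6, 36.5, 36.7, 37.7 and 38.1 CPM in mutant NS and at 34.6, 35.9, 43.3, 44.3 and 46.1 CPM in mutant CVS. Mutant CVS thus held 3 libraries above and 1 library below all of mutant NS (0.15 ± 0.0653, adjusted p 0.5731). Siglech followed at 0.17 ± 0.0914 (adjusted p 0.6438). C1qa alone (3.23%) had an unadjusted p under 0.05, against 7.91% of all genes. The smallest p below 0 belonged to Inpp5d at −0.06 ± 0.0951 and Aif1 at −0.05 ± 0.152. Hemoglobin genes were above 0 in 4 of 4 cases (median 0.65), and their summed level was 72.9 ± 31.4 CPM in mutant NS and 114 ± 57.2 CPM in mutant CVS. Endothelial and pericyte markers were above 0 in 5 of 8 cases (median 0.10). The part of either in the result was not tested. In other comparisons hemoglobin genes were above 0 in 4 of 4 cases for stress in female controls (median 0.285). The same held for genotype in stressed females (median 0.55), where 21 of 31 listed genes were below 0. They were below 0 in 4 of 4 cases for stress in male controls (median −0.22) and for genotype in unstressed males (median −0.41).

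Genotype in unstressed females was the female comparison with the most estimates below 0, 25 of 31 beside 49.3% of all genes, with a median of −0.07. C1qa was at 38.7, 40.2, 40.8, 42.4 and 44.4 CPM in control NS, all above the 35.6 to 38.1 CPM of mutant NS (−0.16 ± 0.0653, adjusted p 0.4792). It was the only listed gene without overlap (3.23%), against 1.8% of all genes. Gpr34 had −0.23 ± 0.0978 (adjusted p 0.5036), and these 2 genes (6.45%) were those at an unadjusted p under 0.05, against 8.07% of all genes. Markers of other cells were also below 0: 8 of 8 for astrocytes (median −0.09), 6 of 6 for oligodendrocytes (median −0.17) and 7 of 8 for endothelial cells and pericytes (median −0.20). Their part in the result was not tested. Itgam at 0.20 ± 0.141 and Aif1 at 0.15 ± 0.153 had the smallest p above 0 (adjusted p 0.7958 and 0.8801).

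Under stress, female genotype gave 21 of 31 genes below 0 (50.1% of all genes), with a median of −0.04 and 0 listed genes at an unadjusted p under 0.05, against 7.08% of all genes. The estimates of smallest p were Aif1 at −0.28 ± 0.149 and Tmem119 at −0.12 ± 0.0674 below 0 (adjusted p 0.7424 and 0.7696), and Ctss at 0.08 ± 0.0570 and Tyrobp at 0.16 ± 0.134 above 0 (adjusted p 0.828 and 0.8568). The female interaction also had 0 listed genes at that level, against 4% of all genes. Its estimates of smallest p were Aif1 at −0.42 ± 0.214, Itgam at −0.22 ± 0.198, Ctss at 0.15 ± 0.0806 and Fcer1g at 0.32 ± 0.182, each with an adjusted p of 0.9999. In this interaction astrocyte markers were above 0 in 8 of 8 cases, oligodendrocyte markers in 6 of 6 and endothelial and pericyte markers in 7 of 8. Their medians were 0.12, 0.13 and 0.15, and their part was not tested. Leave-one-out fits moved the median of genotype under stress from −0.07 without mutant CVS replicate 2 to 0.00 without control CVS replicate 4.

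**Figure D3:**
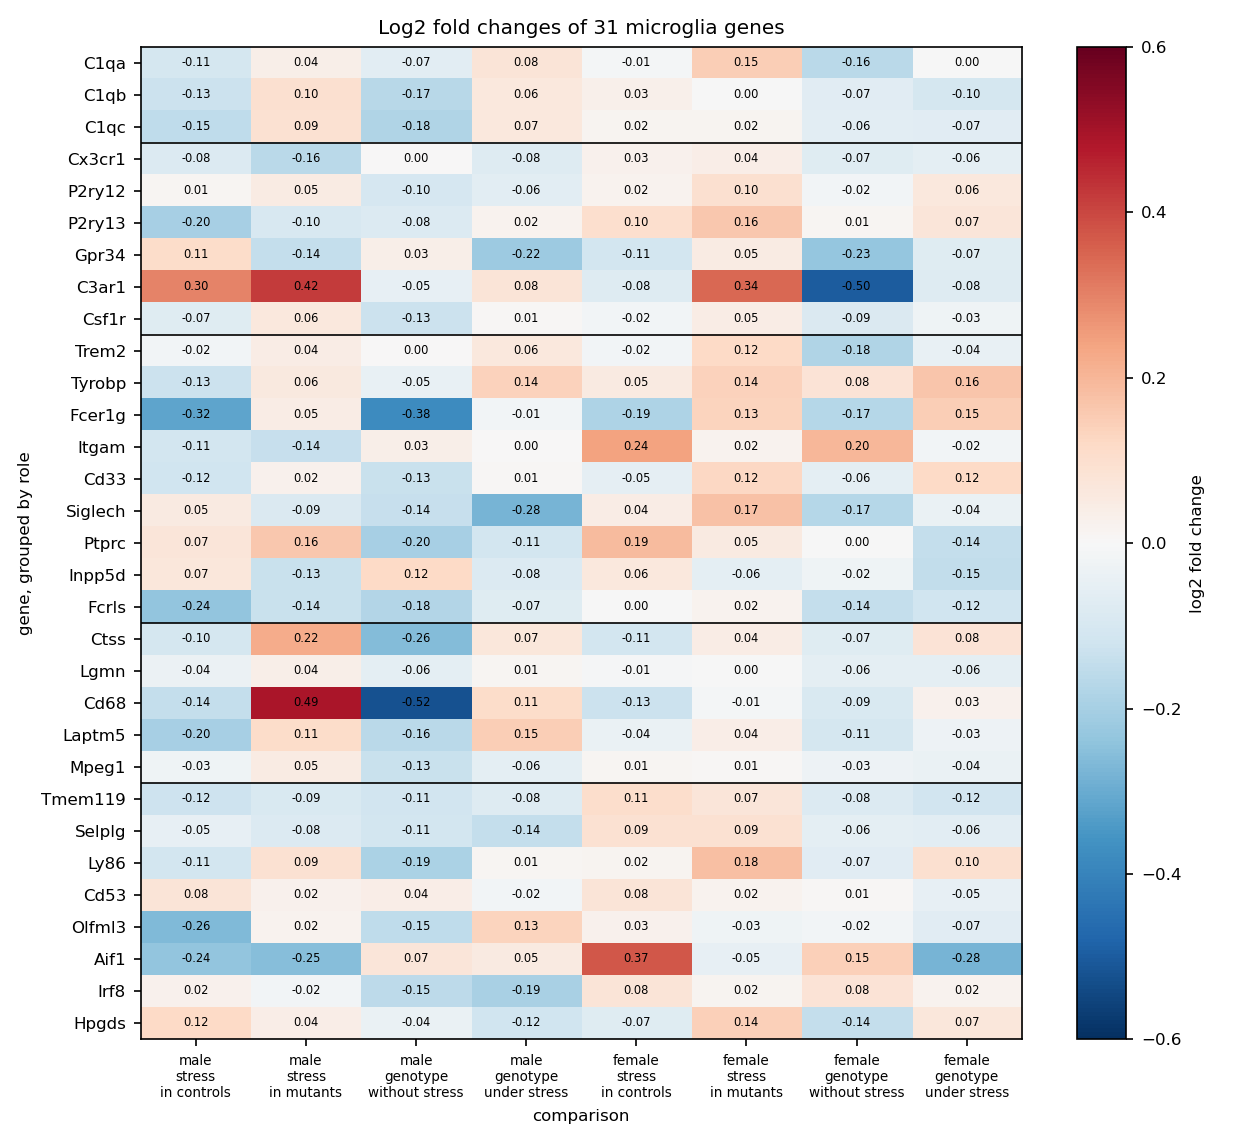
Log2 fold changes of the 31 microglia genes (rows, grouped by role: C1q chains, receptors, immunoreceptor signalling, lysosome, other) in 8 comparisons (columns), on a colour scale from −0.6 to 0.6 with the value in each cell. Cd68 holds the extremes at −0.52 and 0.49, and no value passed the test.

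Averaging over both sexes and the other factor gave the narrowest intervals. For genotype, 28 of 31 genes were below 0, beside 50.1% of all genes, with a median log2 fold change of −0.05 and a range from −0.16 to 0.09. Siglech had −0.16 ± 0.0516 (adjusted p 0.1493). Tmem119, a membrane protein used as a marker of resident microglia, had −0.10 ± 0.0361 (adjusted p 0.2360), and its group means were 28.4 and 26.3 CPM in male control NS and mutant NS, and 25.2 and 23.8 CPM in the female ones. The genes above 0 of smallest p were Tyrobp at 0.09 ± 0.0687 (adjusted p 0.7176) and Itgam at 0.06 ± 0.0723 (adjusted p 0.8676). There were 6 genes (19.4%), all lower, at an unadjusted p under 0.05, against 11.2% of all genes in either direction and 6.12% lower: Siglech, Tmem119, Selplg, Gpr34, Csf1r and Fcrls. Of all genes 1.09% were called.

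Most markers of astrocytes, oligodendrocytes and vessels also lay below 0 in the averaged genotype comparison. Astrocyte markers were below 0 in 8 of 8 cases with a median of −0.07, and 2 of them fell: the calcium-binding protein S100b at −0.14 ± 0.0275 (adjusted p 0.001663) and the glutamate transporter Slc1a2 at −0.10 ± 0.0244 (adjusted p 0.03542). Oligodendrocyte markers were below 0 in 6 of 6 cases (median −0.16, 0 called) and endothelial markers in 8 of 8 (median −0.06, 0 called). Border macrophage markers went the other way, above 0 in 9 of 10 cases with a median of 0.10 and 0 called. The part of these markers in the values of the microglia genes was not tested. Over the alternatives and leave-one-out fits the list's median stayed between −0.06 and −0.04, and 25 to 29 of 31 genes were below 0. Without the libraries of high Cdhr1 it was −0.06, and Siglech was at −0.12 (adjusted p 0.486).

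Stress averaged over all mice left the list centred near 0, with a median of 0.01, 13 of 31 genes below 0 and 48.1% of all genes below 0. C3ar1, the receptor for the complement fragment C3a, was at 0.25 ± 0.122 (adjusted p 0.5314) and was the 1 listed gene (3.23%) at an unadjusted p under 0.05, against 9.37% of all genes. Only 0.017% of all genes were called. Ptprc at 0.12 ± 0.0836 (adjusted p 0.7025) followed above 0, and Fcrls at −0.09 ± 0.0548 (adjusted p 0.6533) and Fcer1g at −0.08 ± 0.0619 (adjusted p 0.7471) led below 0. Without the libraries of high Cdhr1, which leaves 1 male mutant NS library, the list's median was 0.01. C3ar1 was then at 0.18, Ptprc at 0.045, Fcrls at −0.12 and Fcer1g at −0.08. The 95% intervals of C1qa, C1qb and C1qc ran from −0.05 to 0.09, from −0.07 to 0.07 and from −0.09 to 0.08. Those of Cx3cr1, P2ry12 and Csf1r ran from −0.12 to 0.03, from −0.04 to 0.13 and from −0.04 to 0.06. Astrocyte markers were below 0 in 7 of 8 cases, endothelial and pericyte markers in 6 of 8 and oligodendrocyte markers in 5 of 6. Their medians were −0.06, −0.06 and −0.05, and 4 of 6 neuron markers were above 0. The part of these markers was not tested.

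**Figure D4:**
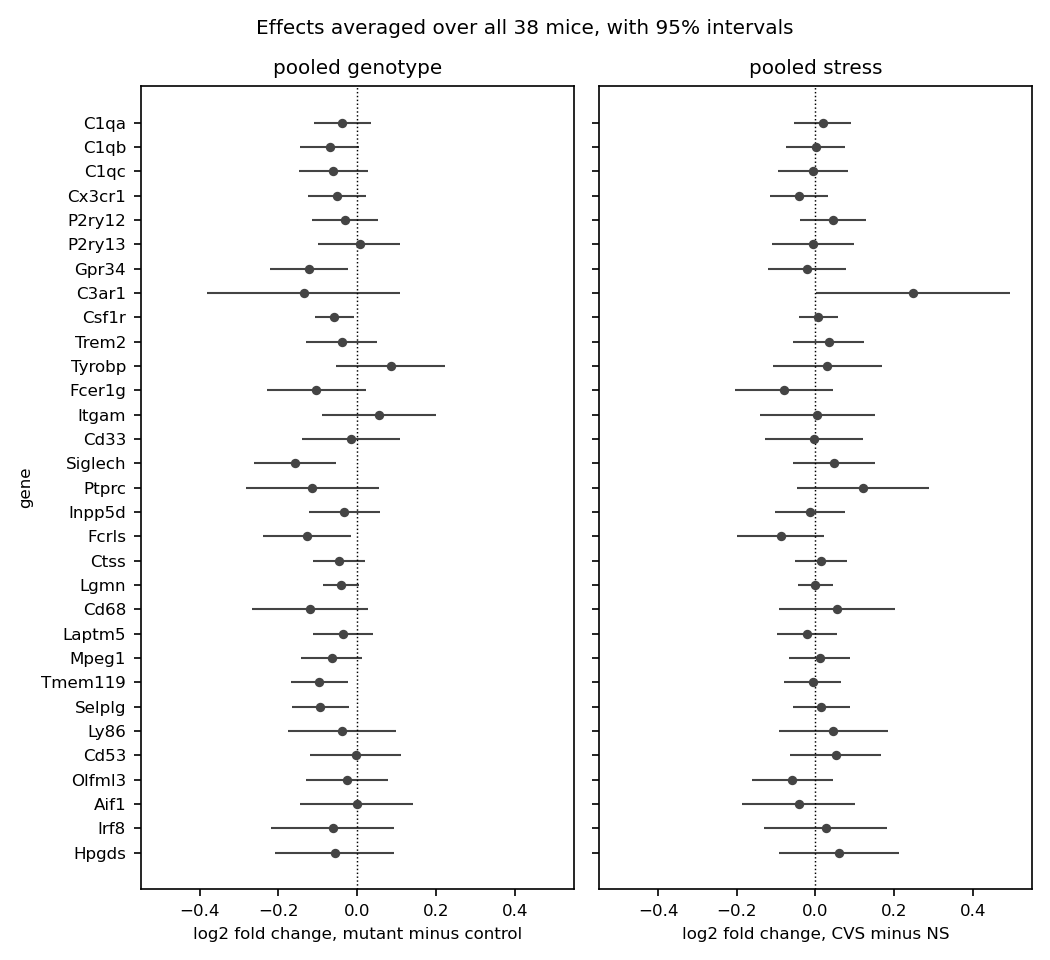
Log2 fold change (point) and 95% interval (bar) of each of the 31 microglia genes for genotype (left, mutant minus control) and stress (right, CVS minus NS), averaged over all 38 mice. Every interval lies within −0.5 to 0.5; 28 of 31 points for genotype lie below 0, against 13 of 31 for stress.

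The intervals set the size of change these data leave room for. In the averaged stress comparison 29 of 31 intervals lay within ±0.25 on the log2 scale and 31 of 31 within ±0.5. For averaged genotype, 27 and 31 of 31 did. Half-widths ran from 0.0455 for Lgmn to 0.246 for C3ar1, with medians of 0.103 for stress and 0.104 for genotype. Within 1 sex the direct comparisons were less precise, with median half-widths of 0.173 to 0.220, and intervals reached as far as −1.01 (C3ar1, genotype in unstressed females) and 0.96 (C3ar1, stress in male mutants).

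The stress effect was also compared between the sexes, as the female effect minus the male effect averaged over the genotypes. Sex and name series cannot be told apart in this contrast. Aif1 had a difference of 0.40 ± 0.143 (adjusted p 0.5959), and Tmem119 of 0.20 ± 0.0721 (adjusted p 0.5968). In all, 5 listed genes (16.1%), all above 0, had an unadjusted p under 0.05, against 7.18% of all genes in either direction and 3.46% above 0. They were Aif1, Tmem119, P2ry13, Selplg, which encodes the adhesion ligand PSGL-1, and Cx3cr1. Cd68 at −0.25 ± 0.147 (adjusted p 0.7365) and Ctss at −0.10 ± 0.0666 (adjusted p 0.7873) led in the other direction. The list's median was 0.04, with 8 of 31 genes below 0 beside 51.1% of all genes. Without the libraries of high Cdhr1, which leaves 1 male mutant NS library, the median was 0.05. Aif1 was then at 0.27, Tmem119 at 0.18, P2ry13 at 0.33, Selplg at 0.17 and Cx3cr1 at 0.16. Cd68 was at −0.33 and Ctss at −0.11.

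Other genes of microglial biology were counted in the averaged comparisons. Of 24 further microglia-enriched genes, 21 were below 0 for genotype and 10 for stress, with medians of −0.05 and 0.01 and 0 called in either. This list holds Cst3 and Sparc, which other brain cells also express. The smallest p for genotype was that of the transcription factor Ikzf1 (−0.21 ± 0.0738, adjusted p 0.1949). Of 18 tested genes of the disease-associated state, such as Axl and Ctsb, 11 were below 0 for genotype and 11 for stress, with 0 called. Of 17 tested inflammatory genes 10 were below 0 in each, of 13 tested complement genes outside C1q 5 and 7, and of 17 ligands and contact signals 13 and 10, again with 0 called. Of the 18 disease-associated genes, 4 were lower and 0 higher for genotype at an unadjusted p under 0.05, where 6.12% of all genes were lower. The 20 genes listed for that state summed to 3306 to 4241 CPM in a library. Which cells held this RNA was not tested.

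Of the 31 genes, 17 had an unadjusted p under 0.05 in at least 1 of the 13 comparisons and 14 had none: C1qc, P2ry12, Trem2, Tyrobp, Itgam, Inpp5d, Ptprc, Lgmn, Mpeg1, Ly86, Cd53, Hpgds, Cd33 and Irf8. Their log2 fold changes in the 8 direct comparisons ran from −0.20 for Ptprc to 0.24 for Itgam. P2ry12 averaged 42.95 ± 4.31 CPM in control NS, 43.2 ± 3.33 in control CVS, 40.0 ± 5.24 in NS mutants and 41.4 ± 2.76 in CVS mutants among males, with overlap between all groups. Trem2 averaged 10.7 ± 0.808, 10.6 ± 0.839, 10.7 ± 0.791 and 11.1 ± 0.747 CPM in the same groups, which differ by less than their SD. Tyrobp averaged 10.25 ± 1.09, 9.40 ± 1.71, 9.94 ± 0.422 and 10.3 ± 1.16 CPM. Female means of P2ry12 were 30.97 ± 2.79, 31.3 ± 2.94, 30.6 ± 3.41 and 32.7 ± 2.79 CPM in the corresponding groups. Those of Trem2 were 10.9 ± 0.727, 10.75 ± 1.29, 9.635 ± 0.848 and 10.4 ± 0.673 CPM. Those of Tyrobp were 8.61 ± 1.83, 8.90 ± 1.09, 9.10 ± 1.08 and 9.96 ± 2.04 CPM, and all female groups overlapped for the 3 genes.

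The C1q chains co-varied between animals of 1 group. The 3 chains of C1q are assembled into 1 molecule, and C1qa, C1qb and C1qc were neighbours among protein-coding genes in the RefSeq annotation. After group means were removed from log2 CPM, C1qa and C1qb correlated in males with Pearson r 0.897 (n = 18, permutation p 0.0001, adjusted 0.0006, Spearman rho 0.723, permutation p 0.00354). In females r was 0.8 (n = 20, permutation p 0.00185, adjusted 0.00585, rho 0.779, permutation p 0.00116). Without the 2 libraries farthest from the median of C1qa, r was 0.822 in males and 0.729 in females. Libraries with a high C1qa thus tended to have a high C1qb within each sex, with male control NS replicate 3 and control CVS replicate 3 at the low end.

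**Figure D5:**
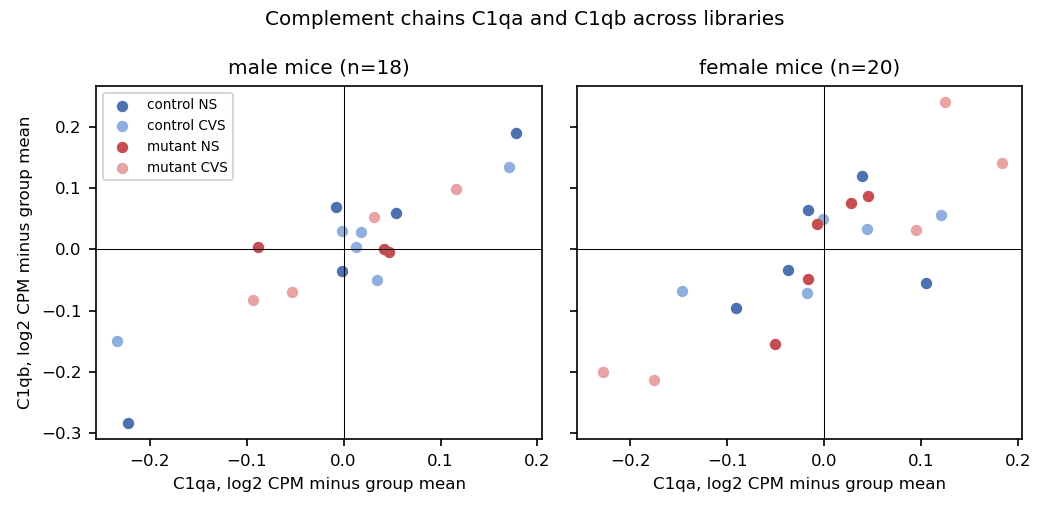
Log2 CPM of C1qb against C1qa in each library after subtraction of its group mean, in male (left, n = 18) and female (right, n = 20) mice, coloured by group. Points run along the diagonal, with r 0.897 in males and 0.8 in females.

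C1qa and C1qc correlated with r 0.844 in males (permutation p 6e-05, adjusted 0.0006, rho 0.822, permutation p 0.00024) and 0.578 in females (permutation p 0.0035, adjusted 0.007, rho 0.618, permutation p 0.00869). Without the 2 libraries farthest from the median, r was 0.718 in males and 0.398 in females, where the adjusted p was 0.0742. Leaving out the extreme libraries narrows the range and lowers n, so this cannot show which libraries carry the relation. C1qb and C1qc gave 0.807 in males (permutation p 0.00328, adjusted 0.007, rho 0.633, permutation p 0.0168), and 0.611 without 2 libraries, again with an adjusted p of 0.0742. In females C1qb and C1qc gave 0.504 (permutation p 0.0617, adjusted 0.0925, rho 0.471, permutation p 0.0734). Libraries share their total count and their cell composition across all genes, and the part of either in these relations was not tested.

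The 3 pairs from outside the C1q cluster gave r between 0.0102 and 0.778. Cx3cr1 and Csf1r, receptors of the same cells, correlated in males with r 0.778 (permutation p 0.00195, adjusted 0.00585, rho 0.674, permutation p 0.01, r 0.721 without 2 libraries). In females this pair gave 0.444 (permutation p 0.105, adjusted 0.14, rho 0.398, permutation p 0.133, r 0.47 without 2 libraries). Trem2 and its adaptor Tyrobp gave 0.0102 in males (permutation p 0.975, adjusted 0.975, rho 0.0588, permutation p 0.839, r 0.172 without 2 libraries). In females they gave 0.472 (permutation p 0.0251, adjusted 0.0431, rho 0.504, permutation p 0.031), which did not pass without 2 libraries (r 0.413, adjusted p 0.146). Cx3cr1 and P2ry12 gave 0.42 in males (permutation p 0.169, adjusted 0.203, rho 0.366, permutation p 0.199, r 0.211 without 2 libraries) and 0.246 in females (permutation p 0.337, adjusted 0.368, rho 0.28, permutation p 0.275, r 0.2 without 2 libraries). The 12 relations, 6 pairs in each sex, were tested 2-sided and adjusted together, and differences between the sexes or between pairs were not tested.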

How the data were processed

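Medial prefrontal cortex was dissected from 1 mm sections and libraries were made from 400 ng of total RNA with a directional kit, per the labels. Reads were processed with fastp 0.23.2, STAR 2.7.10b and featureCounts on GRCm39, per the submitters' processing notes. These sources name neither the annotation release nor the strand setting of the counter. The values deposited by the authors are raw read counts, not normalized. Totals were 17.64 to 27.51 M counts. The 74 pairs of replicates had a chi-square per degree of freedom of 3.495 to 15.22, and 0 pairs were identical.

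Counts were fitted in R 4.3.3 with edgeR 4.0.16 (TMM, filterByExpr with a minimum count of 10, robust quasi-likelihood), 1 model of 4 groups per sex (17212 genes in males, 16435 in females) and 1 model of 8 groups for all mice (17671 genes). Standard errors were derived from each fold change and its F statistic. CPM use TMM factors. The alternatives used DESeq2 1.42.0 and limma 3.58.1, and the scripts were tested on simulated data. Correlations used log2(CPM + 0.5) centred on group means and 100000 permutations within groups. Exon lengths came from GENCODE vM21 (GRCm38), and neighbours and promoters from RefSeq on GRCm38.p6, which is not the build of the counts. Plots were made in Python 3.11.15 (matplotlib 3.10.9). The targeted gene is not reported here.

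The 31 genes and the marker lists were chosen with earlier results of these data known. Values were given for 9 genes in any case (C1qa, C1qb, C1qc, Cx3cr1, P2ry12, Csf1r, Tmem119, Trem2, Tyrobp) and for any gene past the threshold. In most comparisons they were also given for the 2 of smallest p in each direction. For stress in male controls and genotype in unstressed males, the largest estimate above 0 is given instead of genes chosen by p. For stress in male mutants, Cx3cr1 was the only gene below 0 chosen by p, and Aif1 is given as the lowest estimate. Genes without overlap between groups were added after their values were seen.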

Additional observations from a re-analysis of the deposited data

Results flagged for a closer look

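There were 3 values that stood apart from the other libraries of their group by Dixon's test, of 70 groups checked over 9 always-named genes and the summed level. Chance gives about 1 such value in 20 groups. C1qc was at 44.32 CPM in female mutant NS replicate 1, against 32.3 to 35.7 in the other libraries of that group. P2ry12 was at 35.89 CPM in female control NS replicate 2, against 29.1 to 30.2 in the others. The summed CPM of the 31 genes was 752.1 in male mutant CVS replicate 1, against 797 to 806 in the others.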

How the results depend on the processing

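None of the 31 genes was called in any of 319 results of a comparison under an alternative (other tools, scalings and filters, and each library left out in turn). The lowest adjusted p among them was 0.0703, for Siglech in averaged genotype without male control NS replicate 1. Medians over the list changed sign, for stress in male mutants (−0.01 without mutant NS replicate 1), genotype in stressed males (−0.02 without mutant CVS replicate 4), stress in female controls (−0.01 without control CVS replicate 4) and averaged stress (0.00 without male control NS replicate 3). For genotype in unstressed females the median ranged from −0.08 to −0.04.

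Of the correlations, without the 2 farthest libraries C1qb with C1qc in males (r 0.611), C1qa with C1qc in females (0.398) and Trem2 with Tyrobp in females (0.413) no longer passed. Without centring on group means, Trem2 with Tyrobp in females (0.327) no longer passed, while C1qb with C1qc (0.554) and Cx3cr1 with Csf1r (0.489) in females did.

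Counts of called genes among all genes varied with the tool, the filter and the libraries: for averaged genotype 193, with 295 by DESeq2, 93 without the 3 libraries of high Cdhr1 and 101 without male mutant NS replicate 3; for averaged stress 3, with 29 by DESeq2 and 36 without those 3 libraries; for stress in male controls 2, with 19 by DESeq2, 0 by limma voom and 15 without the filter; for genotype in stressed males 9, with 26 by DESeq2 and 43 without the filter; for genotype in unstressed males 3, with 0 by limma voom and 11 without the filter or without the 3 libraries; for genotype in unstressed females 21, with 85 by DESeq2 and 118 without the filter. Genotype in stressed females had 4, with 10 by DESeq2 and 23 without the filter. Where 0 genes were called, DESeq2 and the fit without the filter called 25 and 51 for stress in female controls, 27 and 36 for stress in female mutants, and 1 and 6 for the sex difference of the stress effect. The fit without the filter called 5 for the female interaction, and the fit without the 3 libraries called 8 for stress in male mutants, 7 for the male interaction and 3 for the sex difference. No paired analysis was possible because the labels name animals and give groups no shared replicate numbers. Low counts limit C3ar1, Ptprc, Cd68 and Aif1 most.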
